A study of Mus musculus with 20 samples.

Results

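Cathepsins are the main proteases of the lysosome, the acidic compartment in which cells break down proteins they take up or recycle. They are made as inactive precursors, are carried to the lysosome largely by mannose 6-phosphate receptors, and are held in check outside it by cystatins and serpins. Alveolar macrophages, which clear particles and surfactant from the airspaces, hold many of them, and some are secreted and can cut elastin and collagen. Most cathepsins are cysteine proteases, whereas cathepsin D is an aspartic protease and cathepsin A a serine carboxypeptidase.

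The genes described here are 9 cathepsin genes, Ctsa, Ctsb, Ctsc, Ctsd, Ctsh, Ctsk, Ctsl, Ctss and Ctsz, taken by symbol from the 13225 genes of the deposited table, and all 9 were present. The study sequenced polyadenylated RNA of alveolar macrophages from 20 mice on the C57BL/6 strain, sorted by flow cytometry for CD45, Siglec-F and CD11c. Wild-type (WT) mice breathing air, WT mice exposed to cigarette smoke, miR-155 knockout (KO) mice breathing air and miR-155 KO mice exposed to smoke formed 4 groups of 5 mice each, and the exposure lasted 4 weeks. The labels give neither the age nor the sex of the mice, and they do not say how the knockout was made or in which cells it acts. Samples are named below by the mouse code in their titles.

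The 20 libraries held between 6885680 and 11952088 reads over the genes of the table, and each member had between 2167 and 81914 reads in every library. Markers of alveolar macrophages were measured for 14 of 14 listed genes and summed to between 26280 and 33600 CPM (counts scaled to a common library total) in every library, with 3 of them higher and 6 lower after smoke in WT and 4 higher and 5 lower in KO. Chil3 made up most of that sum, at a mean of 17389 CPM in WT air. Of the genes behind the sort, Siglecf fell by 1.25 on the log2 scale in WT and by 1.15 in KO, Ptprc (CD45) fell by 0.69 and by 0.30, and Itgax (CD11c) was not called. The host transcript of the deleted microRNA, Mir155hg, had 0 to 1 reads per WT air library, 0 to 21 in WT smoke, 0 to 15 in KO air and 0 to 5 in KO smoke. At that depth it does not check the genotype labels, and the mature microRNA is not measured by a table of polyadenylated transcripts. The KO air libraries IIIb2, IIIb3 and IIIb4 were sparser, with 1451 to 1645 genes that had no read at all (259 to 1224 in each of the remaining 17). The KO smoke library IVb4 differed from each other KO smoke library by a chi-square per degree of freedom of 24.4 to 40.7 over genes, where the other 4 differed among themselves by 5.86 to 14.9. For the cathepsins, the smoke changes called in KO and the genotype differences in air are also given without the sparse libraries. Without IVb4, the number of called members and the change of Ctsk in KO are given. Values of other genes in KO rest on all libraries.

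The members lie on 6 mouse chromosomes (build GRCm38, GENCODE M21 gene models). Ctsk (chr3:95499256-95509362, plus strand, 8 exons) and Ctss (chr3:95526786-95556403, plus strand, 8 exons) are neighbours, separated by 17.4 kb. Ctsd (chr7:142375911-142388038, minus) and Ctsc (chr7:88278085-88310888, plus) share chromosome 7, and Ctsa (chr2:164832873-164841032, plus) and Ctsz (chr2:174427493-174439039, minus) share chromosome 2. Ctsb (chr14:63122462-63145923, plus), Ctsl (chr13:64359337-64370890, minus) and Ctsh (chr9:90054152-90076089, plus) lie apart. Exons of Ctsa, Ctsb, Ctsd and Ctsz overlap exons of another gene, over 495, 774, 808 and 10 bases respectively. For Ctsd the other gene, Gm49369, lies on the same strand, so counting by strand would not separate those reads. For Ctsa, Ctsb and Ctsz the overlapping exons lie on the opposite strand. The sources used here do not say whether reads were counted by strand, so reads in all those stretches cannot be assigned with certainty.

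The neighbouring pair Ctsk and Ctss is shown first, because the 2 genes responded differently to smoke although they sit side by side. These are the 250 bases before the transcription start that RefSeq gives for each gene (GRCm38.p6, 5′ to 3′ on the gene's strand, chr3:95498960-95499209 for Ctsk and chr3:95526536-95526785 for Ctss), in lower case because no searched motif was found in them. The RefSeq start of Ctsk lies 46 bases before the GENCODE gene, so the bases just after it lie in no GENCODE transcript of Ctsk.
Ctsk: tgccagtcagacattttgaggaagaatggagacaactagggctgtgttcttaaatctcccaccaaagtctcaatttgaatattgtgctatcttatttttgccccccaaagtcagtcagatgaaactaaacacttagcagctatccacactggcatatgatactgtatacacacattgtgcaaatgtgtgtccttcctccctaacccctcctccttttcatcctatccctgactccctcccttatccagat
Ctss: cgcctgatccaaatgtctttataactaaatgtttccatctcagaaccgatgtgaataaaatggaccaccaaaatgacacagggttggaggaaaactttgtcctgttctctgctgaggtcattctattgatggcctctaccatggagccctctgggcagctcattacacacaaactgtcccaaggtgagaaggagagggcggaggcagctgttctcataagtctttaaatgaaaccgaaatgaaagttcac
The Ctsk window was 43.2% G and C with 0 CpG pairs, and the Ctss window was 44.8% with 4, against medians of 52.4% and 6 over 32851 RefSeq promoter windows of the same length.

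RefSeq windows were matched for 7 of the 9 members (8 windows, as Ctsa has 2), and 5 motifs were searched on both strands. The E-box CACGTG, a motif that TFEB, TFE3, MITF and many other factors can bind, was present in windows of Ctsa, Ctsd and Ctsl, that is 3 of 7 members, and in 6.02% of all promoter windows. The longer TCACGTGA, which contains that E-box, was present in Ctsa and Ctsd and in 0.785% of all windows. These are the stretches around each E-box, with the E-box in capitals, printed because the same 6 letters recur in 3 members.
Ctsd, 98 to 93 bases before an inner start (chr7:142387908-142387937, minus): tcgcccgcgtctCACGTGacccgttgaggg
Ctsd, 245 to 240 bases before an inner start (chr7:142388055-142388077, minus): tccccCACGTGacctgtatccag
Ctsa, 12 to 7 bases before an inner start (chr2:164833749-164833772, plus): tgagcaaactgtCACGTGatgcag
Ctsl, 236 to 231 bases before an inner start (chr13:64370739-64370768, minus): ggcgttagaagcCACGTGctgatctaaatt
All of these stretches come from windows whose RefSeq start site lies inside the GENCODE gene. It lies 211 bases inside for Ctsd, 370 for Ctsl and 900 for Ctsa. The other Ctsa window, with its start 1 base before the gene, held no E-box. The E-box was counted over members but its background over single windows, so these shares are not on the same footing. AGGAAGT, which PU.1 can bind, was present in the Ctsc window and in 7.69% of all windows. The AP-1 motif TGANTCA (6.75% of windows) and the M-box TCATGTG (3.25%) were present in no member's window. A match is a string of letters and shows no binding.

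The deleted microRNA has the following mature sequence in RefSeq (mmu-miR-155-5p, GRCm38.p6, chr16:84714143-84714165, plus strand), with its seed, bases 2 to 8, in capitals.
mmu-miR-155-5p: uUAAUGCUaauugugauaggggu
The DNA letters that pair with this seed, AGCATTA, were found in the longest annotated 3′ UTR of 0 of the 9 members, and in 9.12% of the 11302 measured genes with an annotated 3′ UTR. A match to bases 2 to 7 followed by A was likewise found in 0 of 9 members and in 8.64% of those genes.

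In WT macrophages, 7 cathepsin transcripts were higher after smoke, 1 was lower and 1 did not pass the test. Ctsk rose 4.11-fold, Ctsb, Ctsl and Ctsd rose 1.55- to 1.58-fold, and Ctsc, Ctsz and Ctsa rose 1.28- to 1.43-fold, whereas Ctsh fell to 0.838 of its air level. Genes were called at an adjusted p under 0.05 in a limma fit over all 13225 genes and 20 libraries, with Benjamini-Hochberg adjustment. By that rule 22.4% of all genes were called, 9.66% higher and 12.8% lower. The median log2 change was 0.52 over the members and -0.02 over all genes. The air and smoke mice did not overlap for 8 of 9 members, against 18.1% of all genes. In bulk RNA of this kind, more transcript per cell and more cells that carry the transcript cannot be told apart.

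**Figure D1:**
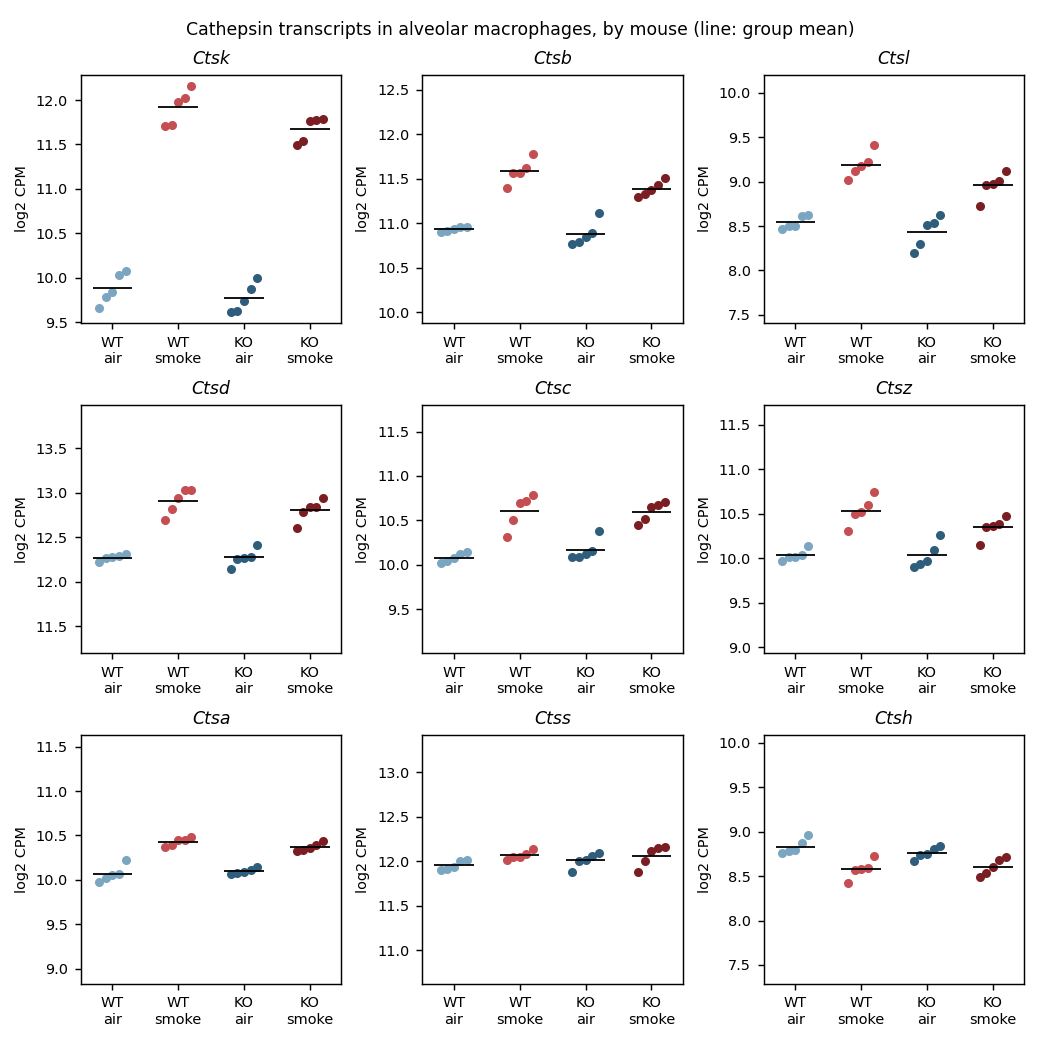
Level of each cathepsin transcript in each of the 20 mice (log2 CPM, vertical axis; every panel spans 2.8 log2 units), by group (horizontal axis), with a line at the mean of 5 mice. Ctsk separates widely between air and smoke in both genotypes, and the Ctss points of air and smoke mice lie at about the same height.

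Cathepsin K, encoded by Ctsk, is a collagen- and elastin-cutting protease best known from osteoclasts, and its transcript changed most in the family. In the WT air mice Ia3, Ia4, Ib1, Ib2 and Ib4 it stood at 9.84, 10.08, 9.66, 9.79 and 10.03 log2 CPM. In the WT smoke mice IIa1, IIa5, IIb1, IIb2 and IIb3 it stood at 12.03, 11.70, 12.16, 11.98 and 11.72 log2 CPM. The lowest smoke mouse was thus well above the highest air mouse. The log2 change was 2.04 ± 0.09 (SE; limma adjusted p = 2.27e-15). In KO mice the air levels were 9.995, 9.62, 9.63, 9.74 and 9.88 log2 CPM (IIIa5, IIIb1, IIIb2, IIIb3, IIIb4). The KO smoke levels were 11.77, 11.78, 11.50, 11.54 and 11.77 (IVa2, IVa4, IVa5, IVb2, IVb4). Again no smoke mouse reached down to an air mouse, and the log2 change was 1.90 ± 0.09 (adjusted p = 1.49e-14). By read number Ctsk ranked between place 78 and 127 of all genes in the 10 air libraries and between place 11 and 21 in the 10 smoke libraries.

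Ctsd, Ctsb and Ctsl, which encode further endopeptidases, rose as well. Cathepsin D, the aspartic endopeptidase, stood at 12.31, 12.26, 12.27, 12.22 and 12.29 log2 CPM in WT air mice, a spread of only 0.03 (SD, n = 5). In WT smoke mice Ctsd stood at 12.81, 12.69, 13.03, 12.94 and 13.04 log2 CPM. All smoke mice were above all air mice, with a log2 change of 0.63 ± 0.08 (adjusted p = 5.90e-07), and in KO mice the change was 0.53 ± 0.08 (adjusted p = 1.50e-05). Ctsd ranked between place 5 and 9 of all genes in every library. Under quantile normalization, which forces the most abundant genes of all libraries onto the same values, its change was 0.21 in WT (adjusted p = 0.0564) and 0.15 in KO (adjusted p = 0.234), so the call was lost in both.

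Cathepsin B, a cysteine protease that also trims peptides from the carboxy end, showed little spread in WT air mice, with Ctsb between 10.90 and 10.96 log2 CPM. The WT smoke mice lay at 11.56, 11.40, 11.78, 11.57 and 11.63 log2 CPM, all higher. The change was 0.66 ± 0.07 (adjusted p = 7.18e-08) in WT and 0.50 ± 0.07 (adjusted p = 8.02e-06) in KO. In KO air mice the highest Ctsb level was 11.12 (IIIa5) and the lowest KO smoke level was 11.29, so the KO groups did not overlap either. Cathepsin L, an endopeptidase of broad specificity, was among the less abundant members. Ctsl lay between 8.47 and 8.62 log2 CPM in WT air and between 9.01 and 9.41 in WT smoke, with a change of 0.65 ± 0.08 (adjusted p = 6.07e-07). In KO mice Ctsl lay between 8.20 and 8.62 in air and between 8.72 and 9.12 in smoke, with a change of 0.52 ± 0.08 (adjusted p = 2.45e-05).

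Ctsc, Ctsz and Ctsa encode exopeptidases. Cathepsin C removes dipeptides and activates granule serine proteases of neutrophils, mast cells and lymphocytes. Ctsc lay between 10.02 and 10.14 log2 CPM in WT air mice and at 10.71, 10.51, 10.78, 10.70 and 10.31 in WT smoke mice, all above the air mice. Its change was 0.52 ± 0.08 (adjusted p = 9.06e-06) in WT and 0.43 ± 0.08 (adjusted p = 0.000166) in KO. Of the 8 serine proteases listed as substrates of cathepsin C, 0 were measured.

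Cathepsin Z, also called cathepsin X, is a carboxypeptidase. Its transcript Ctsz lay between 9.97 and 10.14 log2 CPM in WT air and between 10.30 and 10.75 in WT smoke, with a change of 0.50 ± 0.08 (adjusted p = 1.44e-05). In KO mice the air levels were 10.26, 9.91, 9.94, 10.10 and 9.97 and the smoke levels 10.47, 10.39, 10.35, 10.15 and 10.37 log2 CPM. Here air mouse IIIa5 stood above smoke mouse IVb2, so the groups overlapped. The Ctsz change in KO was 0.31 ± 0.08 (adjusted p = 0.00435), and without the sparse libraries IIIb2, IIIb3 and IIIb4 it was 0.27 with an adjusted p of 0.112. Cathepsin A, which protects neuraminidase and beta-galactosidase in a complex, rose least of the called members. Ctsa lay between 9.98 and 10.22 log2 CPM in WT air and between 10.37 and 10.48 in WT smoke, with no overlap. Its change was 0.36 ± 0.05 (adjusted p = 1.07e-05) in WT and 0.27 ± 0.05 (adjusted p = 0.000573) in KO, and under quantile normalization the WT change was 0.22. Ctsa shares exon bases with Pltp on the opposite strand, and Pltp fell by 1.05 on the log2 scale in WT and by 1.43 in KO.

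Ctsh and Ctss stood apart from the rest. Cathepsin H is an aminopeptidase that also processes surfactant protein precursors in the alveolus. Ctsh stood at 8.78, 8.87, 8.96, 8.76 and 8.79 log2 CPM in WT air mice and at 8.58, 8.57, 8.73, 8.59 and 8.42 in WT smoke mice. Every smoke mouse was below every air mouse, by a narrow margin, and the log2 change was -0.25 ± 0.06 (adjusted p = 0.00334). In KO mice the change was -0.16 (95% interval -0.28 to -0.03, adjusted p = 0.0954) and the groups overlapped. An annotated pseudogene, Gm5398, matches 354 bases of the Ctsh transcript at 91.0% identity. Gm5398 was not analysed here.

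Cathepsin S, which stays active at neutral pH and trims the invariant chain in antigen-presenting cells, was the most abundant member per length in air. Ctss stood at 11.90, 12.004, 11.91, 11.94 and 12.02 log2 CPM in WT air mice and at 12.01, 12.08, 12.05, 12.05 and 12.14 in WT smoke mice. Air mouse Ib4 stood just above smoke mouse IIa1, the lowest of the smoke mice, so the groups overlapped, and the change of 0.11 (95% interval -0.03 to 0.25) did not pass the test (adjusted p = 0.256). In KO mice it was 0.05 (95% interval -0.08 to 0.19, adjusted p = 0.654). Under quantile normalization the Ctss values turned to -0.01 and -0.10, again uncalled. Cathepsin S acts on the invariant chain, so its list with MHC class II was read beside it. Of 8 measured genes, 0 were called higher and 2 lower in WT (H2-DMa at -0.71, Cd74 at -0.64), and 0 higher and 6 lower in KO (Cd74 at -1.37). Of all genes 22.4% were called in WT and 15.5% in KO, and the WT share of the list is near that over all genes.

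In KO macrophages, 7 members rose with smoke, 0 fell and 2, Ctsh and Ctss, did not pass the test. Of all genes 15.5% were called in this comparison, 7.05% higher and 8.45% lower. The median log2 change was 0.43 over the members and -0.01 over all genes. Air and smoke mice did not overlap for 6 of 9 members, against 9.88% of all genes. Without IIIb2, IIIb3 and IIIb4, the KO changes were 1.87 for Ctsk, 0.46 for Ctsd, 0.44 for Ctsb, 0.38 for Ctsl, 0.35 for Ctsc and 0.29 for Ctsa, and these 6 were called (limma adjusted p of 0.0305 or less). Without IVb4 the same 7 members were called, with Ctsk at 1.88.

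**Figure D2:**
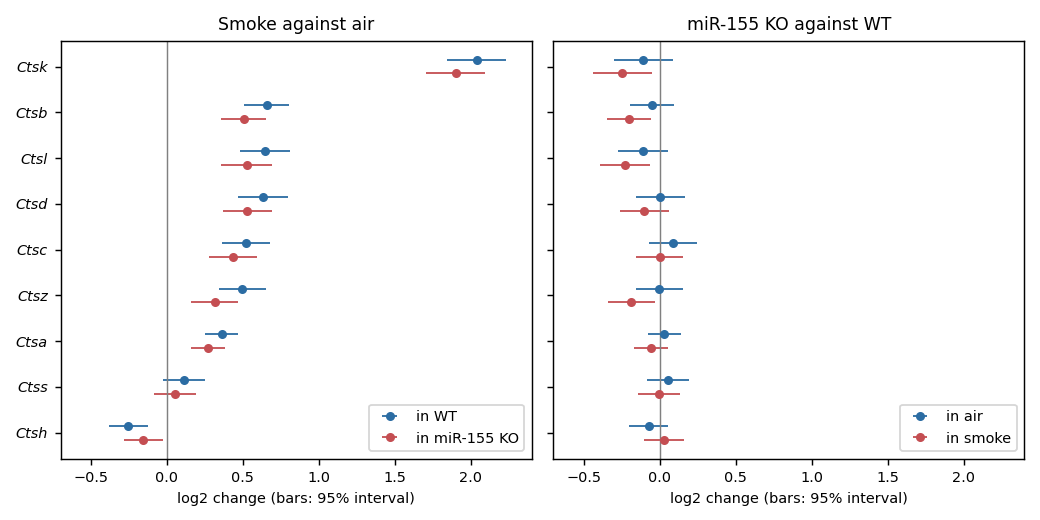
Log2 change of each member (horizontal axis, with 95% interval) for the 2 smoke comparisons (left, by genotype) and the 2 genotype comparisons (right, by exposure), from limma over 20 libraries. Ctsk stands apart on the left at 2.04 and 1.90, and all values on the right lie between -0.25 and 0.09.

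The question of the knockout is whether the family differs without miR-155. In air 0 of 9 members were called between KO and WT, where 0.416% of all genes were, and their log2 differences lay between -0.11 (Ctsl, 95% interval -0.27 to 0.06) and 0.09 (Ctsc). Without IIIb2, IIIb3 and IIIb4 these differences lay between -0.07 (Ctsk) and 0.17 (Ctsc), again with 0 called. In smoke 0 of 9 were called, where 1.58% of all genes were. The lowest values there, all from KO against WT in smoke, were -0.25 for Ctsk (95% interval -0.44 to -0.05, adjusted p = 0.204), -0.23 for Ctsl (-0.40 to -0.07, adjusted p = 0.157), -0.20 for Ctsb (-0.35 to -0.06, adjusted p = 0.163) and -0.19 for Ctsz (-0.34 to -0.03, adjusted p = 0.250). These 4 members were each at an unadjusted p under 0.05. The share of all genes at that unadjusted p was not counted, so the number cannot be read as particular to the family. With limma's weights per library, which count more variable libraries less, Ctsk (-0.25, adjusted p = 0.0407) and Ctsl (-0.21, adjusted p = 0.0411) were called lower in KO smoke mice. Without such weights their values did not pass the threshold of 0.05. Over all 13225 genes the weights raised the number called in this comparison from 209 to 954.

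The smoke responses themselves were compared between genotypes in the same fit. For this difference 0% of all genes and 0 of 9 members were called, with 0 of 9 members at an unadjusted p under 0.05. The share of all genes at that unadjusted p was not counted here either. The difference, KO response minus WT response, was nearest to passing for Ctsz at -0.18 (95% interval -0.40 to 0.04, adjusted p = 0.604). For Ctsk it was -0.14 (95% interval -0.41 to 0.13), an interval that still allows a WT response larger by 0.41 log2 units. The 4 comparisons share groups, so the genotype and smoke values of a member are not independent of each other.

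Summed over the 9 members, the family took 15852 ± 259 CPM (SD, n = 5), or 1.59% of reads, in WT air mice. In WT smoke mice it took 24369 ± 1700 CPM, or 2.44% of reads. The sum was 1.54 times as high in smoke, and the highest air mouse (16221 CPM) was below the lowest smoke mouse (21946 CPM). In KO mice the sum was 15938 ± 769 CPM in air and 22480 ± 1166 CPM in smoke, a ratio of 1.41. The KO air libraries outside the sparse 3, IIIa5 and IIIb1, had sums of 17273 and 15723 CPM. Within WT smoke, mouse IIb1 had the highest level of 6 of the 9 members and mouse IIa5 the lowest of 6. Within KO air, mouse IIIa5 had the highest level of 6 members.

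The make-up of the family changed along with its sum. Levels of different genes were compared as CPM per kilobase of the main transcript, because longer transcripts give more reads. In WT air mice the order of these levels was Ctss at 2931 ± 107 (SD), Ctsd at 2323 ± 55, Ctsz at 729, Ctsk at 626, Ctsc at 435, Ctsb at 411, Ctsa at 295, Ctsh at 282 and Ctsl at 189 CPM per kilobase. Per kilobase of all annotated exons together, the values of Ctsb, Ctsa, Ctsc and Ctsl in WT air were 323, 228, 187 and 57.5, so these levels and the place of Ctsc depend on the length used. Neighbours in the order by main transcript whose mice overlapped were Ctsz and Ctsk, Ctsc and Ctsb, and Ctsa and Ctsh. In WT smoke mice Ctsd (3616 ± 361) and Ctss (3168 ± 105) overlapped at the top, and Ctsk came next at 2578 ± 352, apart from both Ctss above it and Ctsz (1034) below it. On this scale Ctsk made up 7.60% ± 0.77 (SD) of the family in WT air and 20.4% ± 1.9 in WT smoke, and Ctss went from 35.6% ± 0.7 to 25.3% ± 2.0. The share of Ctsd was 28.3% in WT air and 28.7% in WT smoke. In KO mice Ctsk made up 6.99% ± 0.60 in air and 18.6% ± 1.4 in smoke. Shares sum to a fixed total, so a rise of Ctsk alone lowers the shares of the others.

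**Figure D3:**
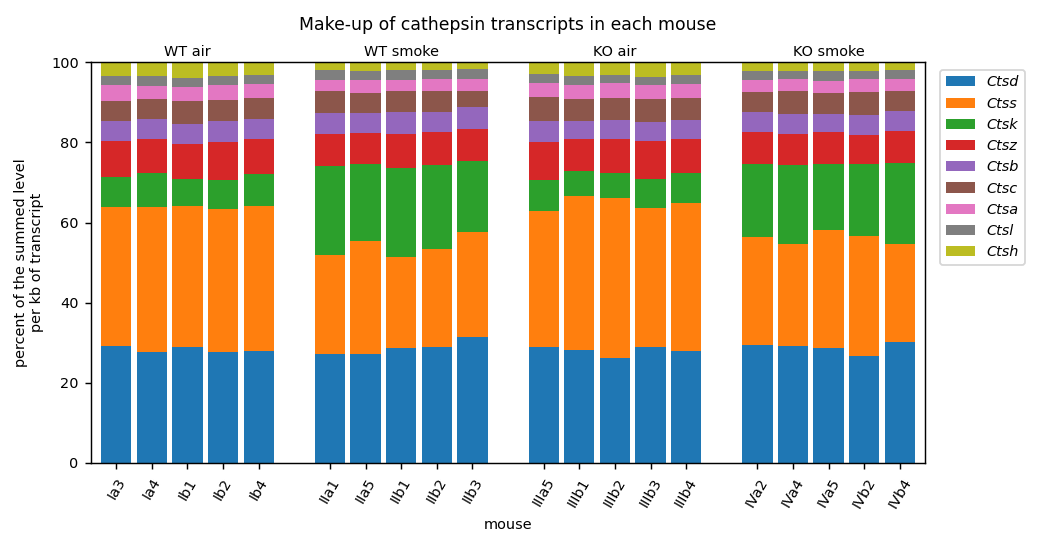
Share of each cathepsin in the summed level per kilobase of transcript (percent, vertical axis) in each mouse (horizontal axis), grouped by genotype and exposure. The Ctsk segment is wider in all 10 smoke mice than in all 10 air mice, with group means of 7.60% and 20.4% in WT.

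Mice of the same group also differed from each other, and some members moved together in those differences. After each gene's group mean was taken away, Pearson's r over the 20 mice was above 0 for 29 of the 36 member pairs and above 0.5 for 11, with a median of 0.23. The highest values were those of Ctsb with Ctsz (0.82), Ctsd with Ctsz (0.79) and Ctsd with Ctsl (0.76). Ctsk followed Ctsb (0.69) and Ctsz (0.59), and its value with its neighbour Ctss was -0.25. Ctss showed no r above 0.20 with any other member. These are descriptions over libraries that differ in depth, with each library's reads shared out among all its genes, and carry no test.

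**Figure D4:**
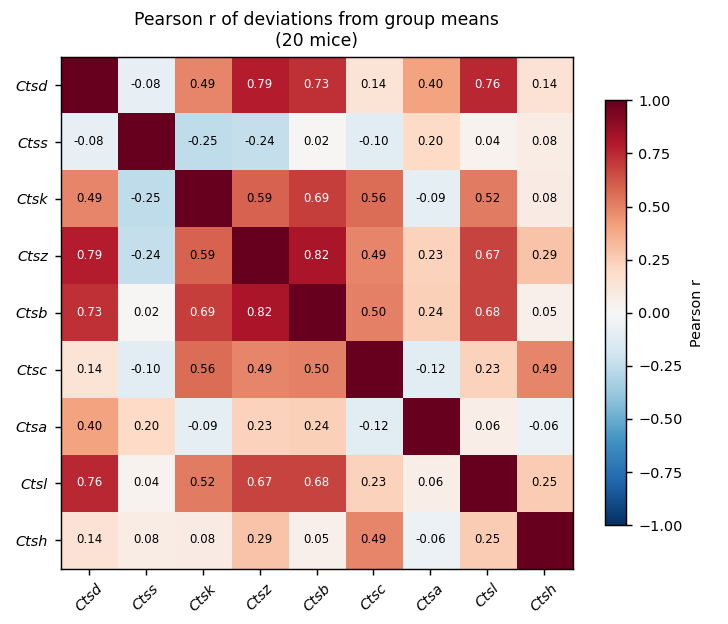
Pearson's r between members (rows and columns) over the deviations of 20 mice from their group means, with red for positive and blue for negative values. Ctsb, Ctsd, Ctsk, Ctsl and Ctsz form a block of positive values, the lowest being 0.49 (Ctsd with Ctsk). Ctsc joins it in part, with 0.56 for Ctsk but 0.14 for Ctsd. Ctss, Ctsa and Ctsh stand outside it, and their highest value with the block is 0.4 (Ctsa with Ctsd).

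The genes whose levels ran most closely with a member over the 20 mice were found among genes with a mean of at least 3 log2 CPM. For Ctsk they were Lgmn (r = 0.988), Stra6l (0.987) and Cd63 (0.986), and for Ctsd they were Lgmn (0.983), Mfge8 (0.972) and Cd63 (0.970). These values include the difference between air and smoke, which raises r for any gene pair that rose. Within groups, the genes most like Ctsk were Glmp (0.842), Stra6l (0.811) and Cstb (0.775). For Ctsd they were Polr1d (0.884), Psap (0.875) and Lgmn (0.865). For Ctsb they were Anpep (0.907), C3 (0.906) and Mmp12 (0.872), and for Ctsc Tgfbi (0.911) came first.

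Other genes of the same machinery were read from lists, whose counts stand beside 22.4% of all genes called in WT and 15.5% in KO. Of 14 further cathepsin genes listed, 2 were measured, and neither was called higher. Ctsf, another cysteine cathepsin, fell by 1.02 on the log2 scale in WT (adjusted p = 1.83e-05) and by 0.75 in KO (adjusted p = 0.00118), and Ctso had values of -0.18 and -0.03, both uncalled. Among 8 measured inhibitors, 4 rose and 0 fell in WT, and 3 rose and 0 fell in KO. The 4 include Serpinb8, scarce at a mean of 0.149 CPM in WT air and 2.18 in WT smoke, with overlapping groups. Cstb, which encodes the cytosolic inhibitor cystatin B, rose by 0.76 ± 0.08 in WT and 0.62 ± 0.08 in KO, and Serpinb6a and Serpinb1a rose by 0.44 and 0.42 in WT.

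Of 8 other lysosomal proteases and peptidases, 5 rose and 2 fell in WT, and 4 rose and 1 fell in KO. The 5 include Cpq, a scarce transcript at a mean of 0.0449 CPM in WT air and 0.830 in WT smoke. Lgmn, which encodes legumain, a protease that can cleave cathepsin precursors, rose by 1.03 ± 0.07 in WT (adjusted p = 4.12e-12) and 0.89 ± 0.07 in KO. Scpep1, a serine carboxypeptidase, rose by 0.79 in WT and 0.85 in KO. Tpp1 and Dpp7 rose by 0.30 and 0.43 in WT and were called higher in KO as well. Napsa, which encodes another aspartic protease, napsin A, fell by 0.90 in WT and by 0.81 in KO. Of the 3 partners of cathepsin A, Galns alone was called, at 0.30 in WT. Among 12 genes of sorting to the lysosome, 2 rose and 1 fell in WT, and 3 rose and 0 fell in KO. The WT share is near that over all genes. Psap, the precursor of the saposins, rose by 0.45 in WT and 0.41 in KO, and the sorting receptor gene Sort1 fell by 0.39 in WT. Igf2r, scarce in WT air at a mean of 2.82 CPM, was called higher in both genotypes, at 2.88 in WT. Scarb2, a lysosomal membrane receptor, was the one sorting gene called between genotypes, at -0.32 in air and -0.27 in smoke for KO against WT.

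Among 10 genes of the TFEB and MITF transcription factor family and its regulators, 2 rose and 1 fell in WT, and 3 rose and 2 fell in KO, and the WT share is near that over all genes. The 2 that rose in WT were Fnip2 (0.57) and Rragc (0.48), regulators of that family at the lysosome, and both rose in KO, at 0.76 and 0.59. The factor gene Tfec fell by 0.27 in WT and by 0.29 in KO. Rragd, a scarce transcript at a mean of 2.31 CPM in WT air and 0.630 in KO air, was called lower in KO air (adjusted p = 0.0323). Because Ctsk is an osteoclast gene, 14 osteoclast-type genes were listed, of which 10 were measured. In each genotype 3 of them rose, 0 fell and 7 were not called, and the WT share is near that over all genes. Acp5, the tartrate-resistant phosphatase, rose by 0.63 in WT and 0.87 in KO, and the proton pump subunit Atp6v0d2 by 0.35 and 0.51. The remaining called gene was Ostm1 in KO and Dcstamp in WT. Dcstamp was scarce, at a mean of 0.219 CPM in WT air and 3.46 in WT smoke, and its WT groups overlapped. Measured genes around Ctsk and Ctss, chosen by position after the values had been seen, had changes of their own. Arnt, just before Ctsk, fell by 0.32 in WT, and Golph3l, just after Ctss, fell by 0.56 in WT, and neither was called in KO.

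**Figure D5:**
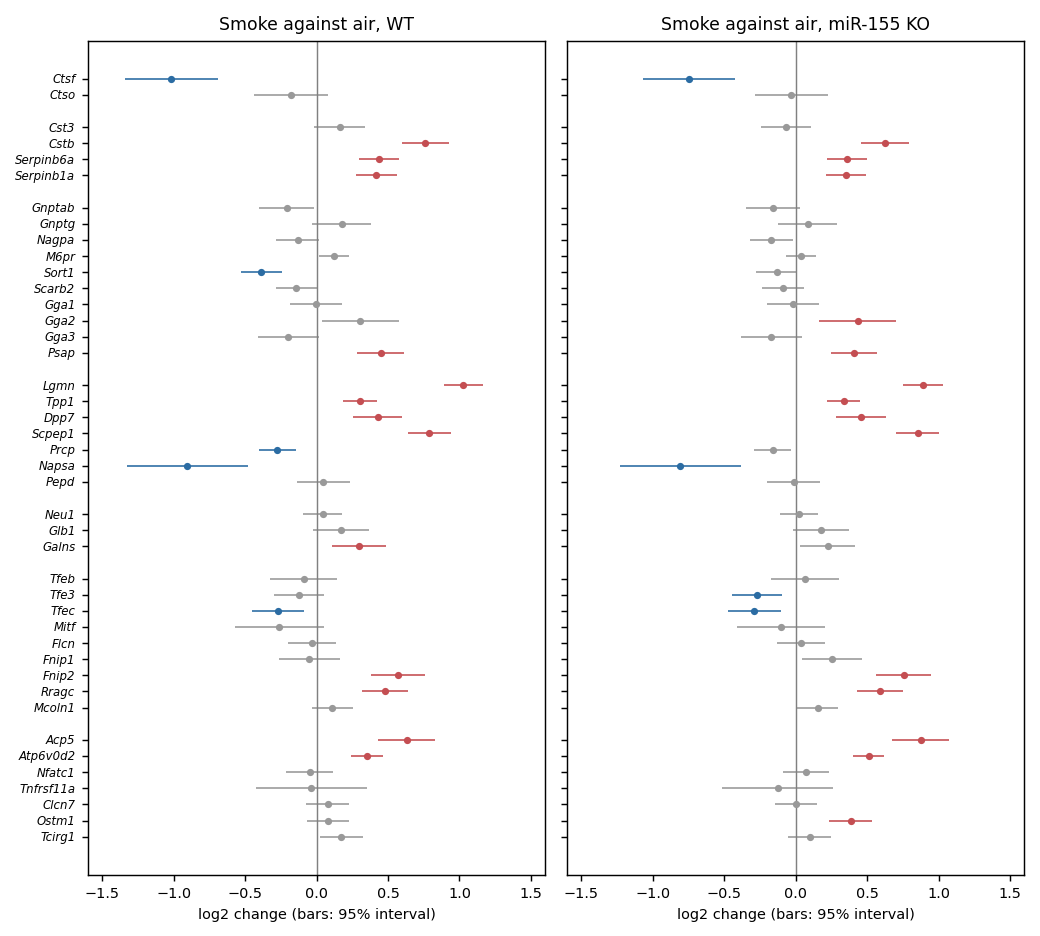
Log2 change with smoke (horizontal axis, with 95% interval) in WT (left) and miR-155 KO (right) for 42 genes of the lists around the cathepsins with a mean of at least 4 log2 CPM, red where called higher, blue where called lower and grey where not called. Blocks from top to bottom are other cathepsins, inhibitors, sorting genes, other lysosomal peptidases, partners of cathepsin A, the TFEB and MITF group, and osteoclast-type genes. Lgmn, Scpep1 and Cstb rose in both genotypes, and Ctsf and Napsa fell in both.

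Markers of other cells also moved with smoke. Of 11 measured markers of monocytes and interstitial macrophages, 4 rose and 2 fell in WT, and 1 rose and 3 fell in KO. Their summed level was 280.5 to 290.6 CPM in WT air, 212.8 to 411.2 in WT smoke, 288.8 to 330.2 in KO air and 194.7 to 239.2 in KO smoke. In WT air Ly6c2 and C1qa were at 0 in every library. The complement chain genes C1qa, C1qb and C1qc together had at most 0.479 CPM in WT air and from 7.58 (IIa5) to 128.6 CPM (IIb1) in WT smoke. Mice IIb1 and IIa5 were also the WT smoke mice with the highest and the lowest level of most cathepsins. Mouse IIb3, next after IIb1 at 43.9 CPM of C1q chains, had the highest level of 3 cathepsins and the lowest of 2. In KO smoke mice the 3 chains reached from 0.459 (IVb2) to 14.2 CPM (IVa4). There IVa2, with the highest level of 5 cathepsins, had 9.295 CPM, and IVb4, with the lowest of 4, had 5.887 CPM. A link between the C1q and cathepsin levels was not tested.

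Neutrophil markers (6 of 9 measured) summed to 86.8 to 136.0 CPM over all air mice and to 139.7 to 359.2 CPM over all smoke mice, and 3 rose and 1 fell in each genotype. Mmp8 made up most of that sum in smoke, at a mean of 187.8 CPM in WT against 35.5 in WT air. Csf3r, the neutrophil marker with the smallest p, fell from a mean of 57.4 to 17.8 CPM in WT. In KO it fell from 71.0 to 23.3 CPM. Dendritic cell markers (6 of 8 measured) summed to 121.4 to 166.5 CPM in air and 195.1 to 364.2 in smoke. Of these, 2 were called higher and 0 lower in each genotype. Cd24a made up most of the dendritic sum, at a mean of 136.9 CPM in WT air and 245.2 in WT smoke. Of 5 eosinophil markers Ear6 alone was measured, at 3.77 to 23.3 CPM in air and 87.9 to 161.1 in smoke. The 2 measured markers of T and NK cells summed to at most 1.71 CPM in air and 41.2 in smoke, and 0 of 4 B cell markers were measured. Epithelial markers (6 of 10) summed to 120.4 to 209.6 CPM in air and 126.4 to 162.0 in smoke. Endothelial and stromal markers (3 of 7) summed to 167.2 to 237.7 CPM in air and 285.8 to 367.4 in smoke. Vwf made up nearly all of the endothelial and stromal sum, at a mean of 222.3 CPM in WT air and 322.1 in WT smoke. The part of other cells in the cathepsin changes was not tested.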

How the data were processed

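The deposited table holds log2 CPM values of 13225 genes in 20 libraries. Per the submitters' processing notes, STAR 2.6.0c, limma and the genome build GRCm38.p6 were used. For the counting tool, the gene annotation and the gene filter, no source used here gives a name. The deposited log2 CPM values were turned back into whole reads (0.5 reads added per gene and 1 per library total), and 100% of values were whole within 0.001. CPM and shares come from these reads.

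Groups were compared with limma 3.58.1 in R 4.3.3 on the deposited values (group means, moderated variances with a trend, all 20 libraries, two-sided, Benjamini-Hochberg over all 13225 genes per comparison). The labels do not say whether the mice were littermates or shared a batch. The procedure was tested on simulated data. All 9 members are named. From each other list, most genes named were among the 4 called genes with the smallest p in a comparison. Napsa, Cpq, C1qc, Fcgr4, Ptprc, Itgax, Chil3, Ly6c2 and Ctso were named outside that rule. The genes most like a member, up to 3 for each measure, are named for some members. Genes that overlap or flank a member were named by position. Members and lists were chosen with earlier results of these data known. Alternatives were 13 other settings and leaving out each library.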

Additional observations from a re-analysis of the deposited data

Results flagged for a closer look

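Within the groups of 5 mice, 36 sets of values (9 members in 4 groups) were checked for a mouse far from the rest, and 1 was found, where chance alone gives about 1 in 20. It was Ctsc in KO air, where mouse IIIa5 stood at 10.38 log2 CPM and the next mouse at 10.16, a gap of 0.76 of the whole range of the group.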

How the results depend on the processing

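Over 13 other settings and 20 fits that each left out a library, no called member changed direction, and leaving out a library changed no member's call. The number of called members was 8 in WT and 7 in KO for smoke against air, and leaving out each library in turn kept these numbers. Quantile normalization gave 7 in WT and 6 in KO, since Ctsd was lost (0.21, adjusted p = 0.0564, and 0.15, adjusted p = 0.234). It gave family sums of 16470 CPM in WT air, 22226 in WT smoke, 17038 in KO air and 21039 in KO smoke. Leaving out IIIb2, IIIb3 and IIIb4 gave 6 in KO, without Ctsz (0.27, adjusted p = 0.112). Weights per library raised the number called for KO against WT in smoke from 0 to 2, Ctsk (-0.25, adjusted p = 0.0407) and Ctsl (-0.21, adjusted p = 0.0411). Over all 13225 genes the same weights raised the number called in that comparison from 209 to 954. Apart from the construction of these settings, the cause was not tested. Among values that were not called, 28 changed sign. The 2 count-model tests that had been planned were not run, since the deposited values are not counts, and limma with voom weights on the recovered reads changed no member's call. No paired analysis was possible because the full mouse codes differ between groups and the labels do not say that their letter or digit pairs mice. The letter as a covariate changed no member's call.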
